A study of Rattus norvegicus with 9 samples.

Results

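Fmo1, Fmo2, Fmo4 and Fmo5, which code for flavin-containing monooxygenases (FMOs), were followed in rat lung. They were taken as the genes whose symbol is the only one given for a probe of the array, so 4 of the 14497 named genes are described, each with 1 probe. Lung RNA came from 7 Wistar rats. The 3 rats with metabolic syndrome (MetS) had received a 30% sucrose solution as their sole drink for 24 weeks, and the 4 controls drank water over the same time; both groups ate the same standard chow and were fasted for 7 hours before they were killed. The labels describe the MetS animals as male and give no sex for controls, and whether the sexes differed was not tested. Values are log2 expression on whole-transcript Affymetrix arrays, 1 unit being a doubling. MetS animal 1 and control 1 had 2 arrays each, so that 9 arrays stood for 7 animals. Animals were the replicates, and their number limits the precision.

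FMOs are membrane enzymes of the endoplasmic reticulum that use FAD and NADPH to place an oxygen atom on a soft nitrogen or sulfur atom of a drug, a toxin or a metabolite. FMO2 is the characteristic form of mammalian lung, and laboratory rats have been reported to carry an allele that codes for a shortened FMO2 protein, so that the transcript is not a measure of enzyme activity. FMO1 oxidises a wide range of amines and sulfides and converts hypotaurine to taurine. FMO5 acts mainly on ketones and aldehydes, as a Baeyer-Villiger enzyme, and the substrates of FMO4 are poorly known.

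In the RefSeq gene order of assembly GRCr8, Fmo4, Fmo1 and Fmo2 follow each other directly, and Fmo5 lies on another chromosome. The start regions of the adjacent pair Fmo1 and Fmo2 are shown because one gene parted the groups and the other did not. Neither gene passed the adjusted test, and whether their group differences differ from each other was not tested. The start regions come from RefSeq (GRCr8), which gave one for 3 of the 4 genes, and hold 250 bases before and 50 bases after the start. Both lie on the minus strand and are written 5′ to 3′; Fmo1 is chr13:77747617-77747916 and Fmo2 is chr13:77777485-77777784. Capitals mark the matches described next.
Fmo1: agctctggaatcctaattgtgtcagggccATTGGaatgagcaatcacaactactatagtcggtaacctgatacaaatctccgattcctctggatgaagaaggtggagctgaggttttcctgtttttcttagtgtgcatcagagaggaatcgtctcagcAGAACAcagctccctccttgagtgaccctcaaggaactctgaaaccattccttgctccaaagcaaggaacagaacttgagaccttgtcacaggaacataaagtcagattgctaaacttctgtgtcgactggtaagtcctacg
Fmo2: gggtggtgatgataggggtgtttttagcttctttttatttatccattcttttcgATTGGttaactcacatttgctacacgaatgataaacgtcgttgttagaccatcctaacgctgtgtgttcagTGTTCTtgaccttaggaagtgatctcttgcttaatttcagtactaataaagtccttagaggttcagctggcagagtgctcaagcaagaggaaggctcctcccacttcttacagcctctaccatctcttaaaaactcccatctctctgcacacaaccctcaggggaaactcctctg

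Short motifs were searched on both strands of these windows. They were the TATA box (TATAAA, present in 14.2% of 33469 RefSeq start regions of the same length), the CCAAT box (CCAAT, 37.5%) and the glucocorticoid receptor half-site (AGAACA, 20.7%). Further motifs were the HNF1 half-site (GTTAAT, 7.45% of start regions), the AP-1 site (TGAGTCA, 4.63%), the core of the xenobiotic response element (GCGTG, 29.7%) and an E-box (CACGTG, 6.42%). Each of the 2 windows held 1 CCAAT box, beginning 221 bases before the start in Fmo1 and 196 before it in Fmo2. Each also held 1 glucocorticoid receptor half-site, 92 bases before the start in Fmo1 and 125 before it in Fmo2. None of these matches overlapped another, and the letters of the other motifs were in neither window. The Fmo5 window held the xenobiotic response element core once and none of the others.

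Fmo2 was the one member whose groups did not overlap. Its log2 level was 12.52, 12.36 and 12.79 in MetS animals 1 to 3 and 12.16, 12.27, 12.20 and 11.64 in controls 1 to 4. Every MetS value lay above every control, with 0.09 between the lowest MetS animal and the highest control, while control 4 stood well below the other controls. The means were 12.56 ± 0.22 (SD, n = 3) and 12.07 ± 0.29 (SD, n = 4), a difference of 0.49 with a 95% interval of 0.08 to 0.89, or 1.40-fold (1.06 to 1.86). In limma the unadjusted p was 0.0240 and the adjusted p over all probes 0.330, so Fmo2 did not pass the test. Without control 4 the difference was 0.35, and with the SD of an animal's log2 values over all probes added to the model it was 0.85. The 2 arrays of MetS animal 1 differed by 0.02 for this gene, as did those of control 1.

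Fmo1 stood at the same level in both groups. MetS animals 1 to 3 read 11.65, 12.03 and 12.08, and the controls 11.78, 11.97, 11.83 and 12.05. The lowest and the highest of the 7 values were both MetS animals, so the control range lay inside that of MetS. The difference was 0.01 with a 95% interval of -0.27 to 0.30 (limma, adjusted p = 0.963), an interval that holds a 1.23-fold rise and a fall to 0.83 of the control level. The 2 arrays of an animal differed by 0.05 in MetS animal 1 and by 0.08 in control 1.

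Fmo4 read 7.48, 7.69 and 7.48 in MetS and 7.45, 7.28, 7.38 and 7.53 in controls. MetS animal 2 was highest and controls 2 and 3 were lowest, and control 4 lay above 2 of the MetS animals. The means were 7.55 ± 0.12 (SD, n = 3) and 7.41 ± 0.10 (SD, n = 4), a difference of 0.14 with a 95% interval of -0.06 to 0.34 (limma, adjusted p = 0.471). With that SD in the model it was 0.03, without controls 2 and 3 it was 0.07, and without MetS animal 2 it was 0.07. The deposited Fmo4 value was the same to the last digit on 4 of the 9 arrays, which include both arrays of MetS animal 1. Such repeats on at least 4 arrays occurred for 8.78% of all probes, and on at least 2 arrays for 40.9%.

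Fmo5 read 8.61, 8.17 and 8.44 in MetS and 8.76, 8.11, 8.18 and 8.73 in controls. The controls fell into a high pair, controls 1 and 4, and a low pair, controls 2 and 3, with MetS animals 1 and 3 between these pairs and MetS animal 2 within the low pair. The means were 8.40 ± 0.22 (SD, n = 3) and 8.44 ± 0.35 (SD, n = 4), a difference of -0.04 with a 95% interval of -0.50 to 0.43 (limma, adjusted p = 0.935). It became -0.50 with that SD in the model and -0.34 without controls 2 and 3, and its sign turned without MetS animal 2, control 1 or control 4. The 2 arrays of control 1 differed by 0.22 for Fmo5, more than for any other member, against a median of 0.08 over all probes.

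**Figure D1:**
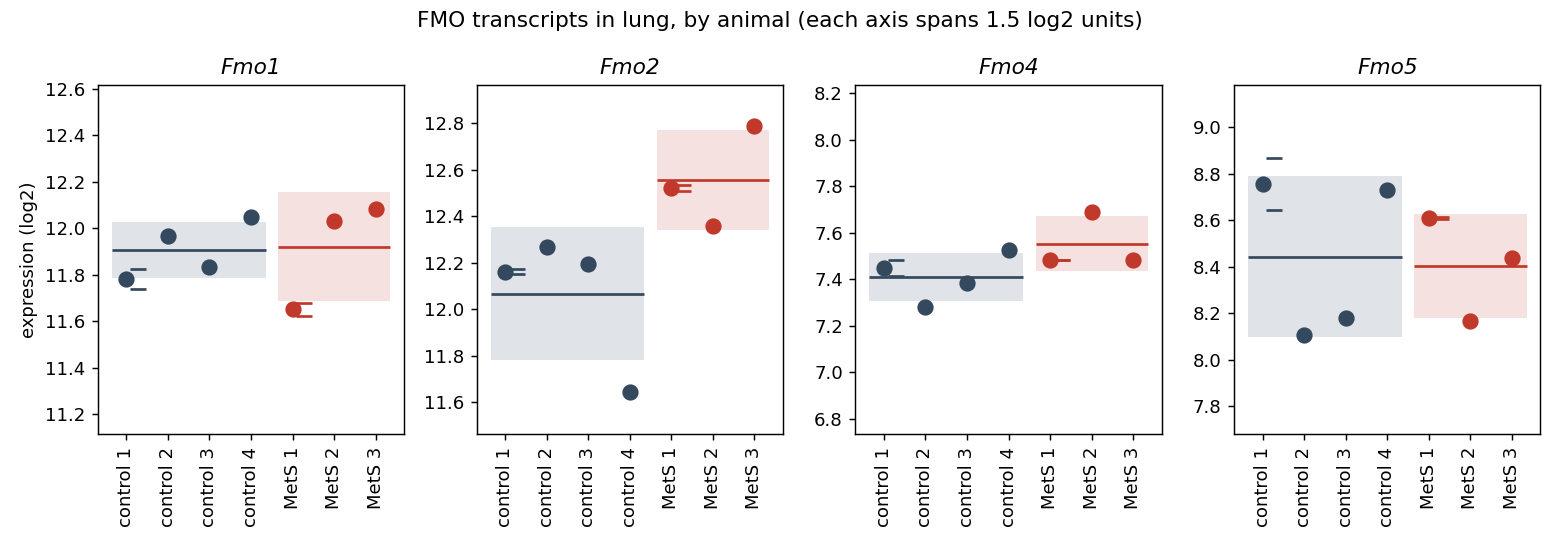
Log2 expression of the 4 FMO genes in each animal, with controls in dark blue and MetS in red; each panel spans the same 1.5 log2 units. Filled points are animals, lines and bands the group mean ± SD, and short dashes the 2 arrays of MetS 1 and control 1. The groups part only for Fmo2, where control 4 lies at 11.64.

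These counts are given beside the shares over all probes, but 4 members are too few for the shares to be compared. In limma 0 of the 4 members passed the adjusted threshold, as did 0% of all 28826 probes. At an unadjusted p under 0.05 Fmo2 passed, 1 of 4, where 13.7% of all probes did and 3.82% did so on the higher side. These 3959 probes were 1102 higher and 2857 lower in MetS, and after another quantile normalization 2312 higher and 1993 lower. Likewise the groups did not overlap for 1 of the 4 members, against 11.7% of all probes; those parted with MetS on the higher side were 4.88% of all probes. Of the 4 genes 3 were higher by sign, as were 62.0% of all named genes, and the median difference was 0.08 against 0.04. A difference wider than that of Fmo2 in either direction was seen in 7.77% of probes.

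The spread of the values differed between animals. The SD over all probes was between 1.88 and 1.93 in MetS and between 1.76 and 1.88 in controls, lowest in controls 2 and 3, while array medians lay between 7.64 and 7.69. With that SD in the model Fmo2 stayed higher and Fmo5 read lower in MetS (unadjusted p = 0.00225 and 0.0216 in limma), but neither passed over all probes (adjusted p = 0.999 for both). The parts of group and array spread in these values cannot be told apart, because the MetS animals lay towards the high end of the SD.

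**Figure D2:**
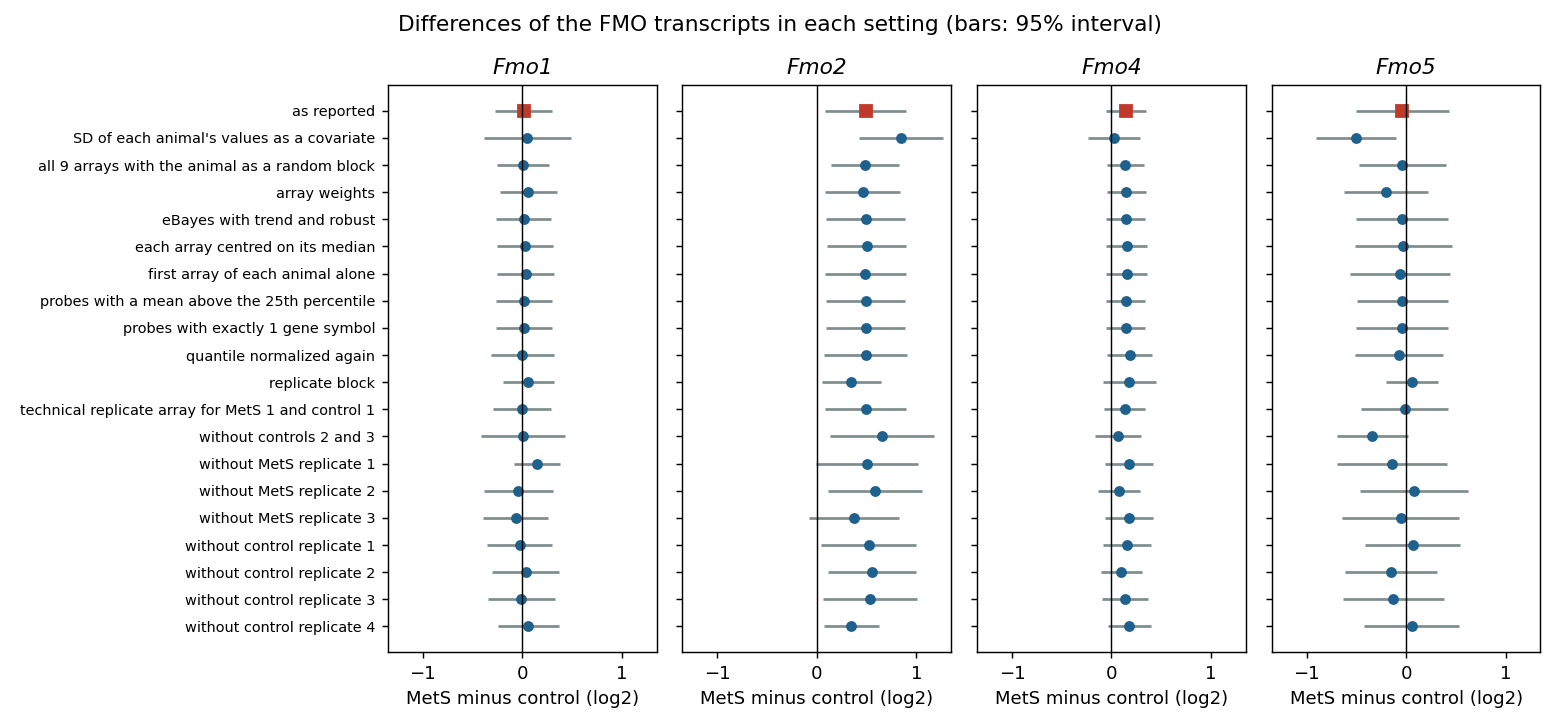
MetS minus control difference (log2) with its 95% interval for each FMO gene, as reported (red square) and in 19 other settings (blue points). The Fmo2 difference was above 0 in each of them, from 0.35 to 0.85, whereas those of Fmo1 and Fmo5 lay on both sides of 0.

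A further FMO gene, Fmo9, had a probe with its symbol alone. It read 5.73 ± 0.06 (SD, n = 3) in MetS and 5.90 ± 0.29 (SD, n = 4) in controls, below the 25th percentile of probe means, 6.48. The controls split as the array spread did, with 6.17 and 6.12 in controls 2 and 3 against 5.67 and 5.63 in the others. The difference of -0.17 turned to 0.21 with that spread as a covariate (limma, adjusted p = 0.605 as reported).

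Around the cluster the measured neighbours did not follow Fmo2 as a block. Vamp4, a membrane fusion protein of the Golgi, was 8.51, 8.41 and 8.59 in MetS and 8.25, 7.88, 7.98 and 8.31 in controls, groups that did not overlap. Its difference was 0.40 (0.12 to 0.68; limma, adjusted p = 0.324), but 0.15 with the array spread as a covariate. Myoc, which codes for myocilin, lies between Vamp4 and Fmo4 and differed by -0.13. On the far side of Fmo2 the mesenchymal transcription factor Prrx1 differed by -0.08, the Golgi gene Gorab by 0.11 and the kinesin-associated gene Kifap3 by 0.14, all with overlapping groups. Mettl13, a methyltransferase gene on the Fmo4 side, differed by 0.19. Beside Fmo5, the AMP-activated kinase subunit Prkab2 differed by 0.10, Pde4dip by 0.07 and Sec22b by 0.13 on one side, and Or13l2 by -0.10, Acp6 by 0.04 and the gap junction gene Gja5 by -0.10 on the other, each with overlapping groups.

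**Figure D3:**
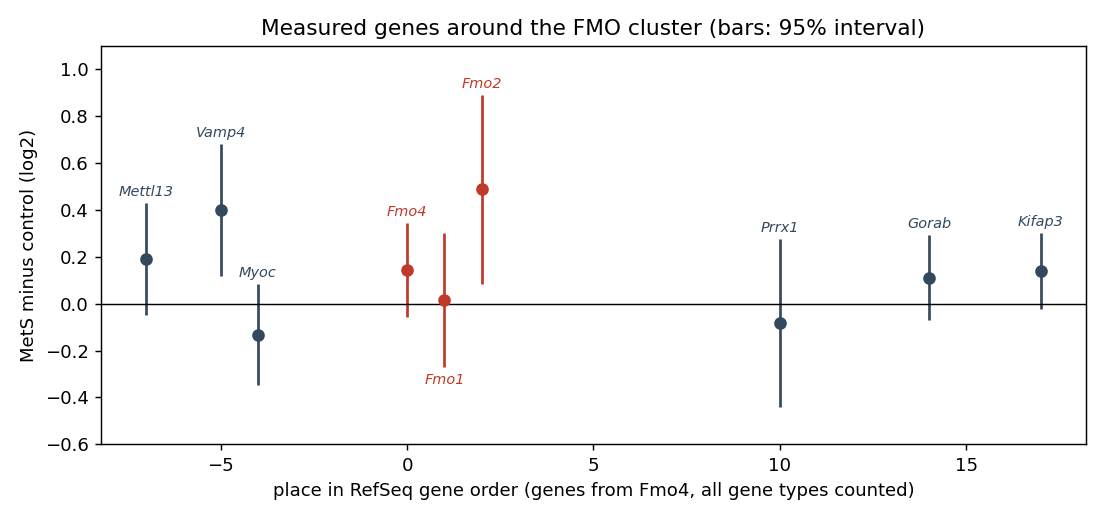
MetS minus control difference (log2) with its 95% interval for the measured genes around Fmo4, Fmo1 and Fmo2, placed by gene order and not by distance. The intervals of Fmo2 and Vamp4 lie above 0 and those of the genes between and beyond them include it.

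FMOs draw on FAD and on NADPH, and 7 lists of related steps gave the setting for the members. Of their 47 measured genes, 34 (72.3%) were higher and 13 lower in MetS by sign, with a median difference of 0.06 (0.01 with the SD of the animals' values in the model), against 62.0% higher and a median of 0.04 over all named genes. At an unadjusted p under 0.05, 2 of the 47 passed, both higher, a share close to the 3.82% of all probes that passed on that side and below the 13.7% that passed in either direction. None passed over all probes. The first of the pair was Por, the reductase that hands electrons from NADPH to cytochromes P450. It read 10.54, 10.36 and 10.29 in MetS and 10.15, 10.14, 10.06 and 10.07 in controls, without overlap, a difference of 0.29 (0.12 to 0.47; limma, unadjusted p = 0.00560, adjusted p = 0.324). The other was H6pd, which makes NADPH inside the endoplasmic reticulum. It read 8.87, 9.06 and 8.97 in MetS and 8.81, 8.71, 8.63 and 8.78 in controls, again without overlap, a difference of 0.24 (0.06 to 0.41; unadjusted p = 0.0145, adjusted p = 0.324 in limma). With the array spread as a covariate these differences were 0.24 for Por and 0.17 for H6pd.

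By step, FAD supply had 2 of 4 genes measured, of which the riboflavin kinase gene Rfk differed by 0.06 and the riboflavin transporter Slc52a2 by -0.01. NADPH supply had 5 of 7 higher and a median of 0.05, and P450 and cytochrome b5 electron transfer 6 of 7 higher and a median of 0.13. Among the other drug-oxidising flavoenzymes and hydrolases 9 of 11 were higher by sign, with a median of 0.06. There the monoamine oxidase gene Maoa had the smallest p and differed by 0.26, while Maob differed by -0.11. N-oxide and sulfoxide reduction had 6 of 8 higher and a median of 0.11, with the methionine sulfoxide reductase Msra at 9.23 ± 0.08 (SD, n = 3) against 9.07 ± 0.10 (SD, n = 4). Cyb5b counts both here and in the P450 and cytochrome b5 list. Of the taurine genes 3 of 4 were higher; Cdo1, the cysteine dioxygenase that starts the path to hypotaurine, read 11.86, 11.37 and 11.76 in MetS and 10.98, 11.38, 11.56 and 11.51 in controls, which overlap. None of the genes of these last 3 lists reached an unadjusted p under 0.05 in limma. Neither did any of the 9 measured transcription factors that have been reported to act on FMO genes, 5 of them higher by sign with a median of 0.00; the AHR partner Arnt differed by 0.11 and the glucocorticoid receptor gene Nr3c1 by 0.11.

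**Figure D4:**
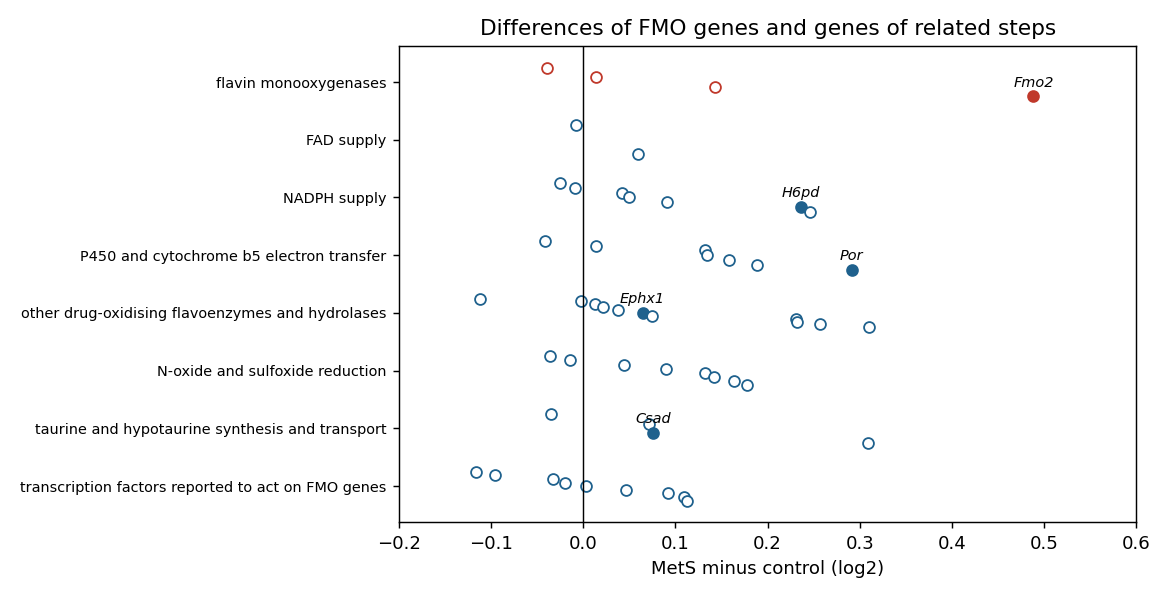
MetS minus control difference (log2) of the 4 FMO genes (red) and of genes of 7 related lists (blue), 1 point for each gene of a list. Cyb5b stands in both the P450 and the N-oxide list and has a point in each. Filled, named points are genes whose groups did not overlap; Fmo2 lies farthest to the right at 0.49, and Ephx1 and Csad differ by under 0.1.

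Fmo1 ran with markers of the endothelium, the lining of blood vessels. Over the 7 animals its order was the same as that of the mean of 9 endothelial cell markers, such as Pecam1, Cdh5 and Tie1, which read 10.66, 11.00 and 11.02 in MetS and 10.78, 10.85, 10.81 and 11.01 among the controls. Pearson's r was 0.976 (two-sided exact permutation p = 0.000397, or 0.0175 after adjustment over 44 relations) and Spearman's rho 1.00 (p = 0.000397, adjusted p = 0.0175), that p being the smallest these permutations can give. Without the 2 animals farthest from the median of Fmo1 r was 0.939. Taken singly, and with no test, the 9 markers had r with Fmo1 from 0.42 for Emcn to 0.95 for Egfl7. With each marker left out of the mean in turn r lay between 0.96 and 0.98, and 4 of 11997 other genes followed the endothelial mean at least as closely. MetS animal 1 and control 1, lowest for both, had the highest heart muscle marker means, 8.65 and 9.67. Those of the other animals lay between 6.97 and 7.36. In that list Myl7 was instead highest in MetS animal 2 (8.23) and Nppa in control 2 (7.06). The heart muscle mean had r = -0.723 with Fmo1 (exact permutation p = 0.119, adjusted p = 0.655), and r was 0.057 without the same 2 farthest animals. Its part in the relation of Fmo1 to the endothelial markers was not tested. In bulk lung, fewer cells of a type and less RNA per cell cannot be told apart. The endothelial list itself had 6 of 9 genes higher by sign, a median difference of 0.05 and no gene at an unadjusted p under 0.05. The mean of 7 fat cell markers had r = -0.867 with Fmo1 (exact permutation p = 0.00476, adjusted p = 0.0419; rho = -0.857, p = 0.0238, adjusted p = 0.175; r = -0.949 without the 2 farthest animals), but this rested on 1 gene. That gene was Fabp4, a fatty acid binding protein gene that also stands in the macrophage list and lay below the 25th percentile of probe means. Without Fabp4 r was 0.233 (exact permutation p = 0.613) and rho 0.0357 (p = 0.963). Without Cidec r was -0.681 (exact permutation p = 0.0980), while rho was -0.893 (p = 0.0123). Fabp4 itself read 7.22, 6.13 and 5.97 in MetS and 7.08, 6.54, 6.58 and 5.82 in controls. Alveolar macrophage markers also ran against Fmo1, with r = -0.854 (exact permutation p = 0.0139, adjusted p = 0.102). Their rho was -0.857 (exact permutation p = 0.0238, adjusted p = 0.175), so neither passed adjustment. Without the 2 farthest animals r was -0.581.

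Fmo4 ran with markers of red cells and of smooth muscle. The red cell mean, over 5 genes such as Alas2 and Hbb, was 11.08, 11.41 and 11.16 in MetS and 10.77, 10.51, 10.59 and 11.16 in controls. Both it and Fmo4 were highest in MetS animal 2 and lowest in control 2 (r = 0.931, exact permutation p = 0.00159, adjusted p = 0.0349; rho = 0.937, p = 0.00476, adjusted p = 0.0698), and r was 0.936 without the 2 farthest animals. For 7 smooth muscle markers r was 0.971 (exact permutation p = 0.00397, adjusted p = 0.0419; rho = 0.883, p = 0.0135, adjusted p = 0.148), and 0.871 without those 2. Hepatocyte markers ran the other way (r = -0.824, exact permutation p = 0.00238, adjusted p = 0.0349; rho = -0.937, p = 0.00476, adjusted p = 0.0698; r = -0.879 without the same 2), but after another quantile normalization r was -0.17. Other genes followed the lists as closely, 123 of 12001 for red cells and 17 of 11999 for smooth muscle. Between Fmo4 and the SD of the animals' values r was 0.763 (exact permutation p = 0.0325, adjusted p = 0.325 over 10 relations). Spearman's rho was 0.811 (exact permutation p = 0.0349, adjusted p = 0.349), so neither passed adjustment. Without controls 2 and 3, the 2 animals farthest from the median SD, r was 0.353.

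**Figure D5:**
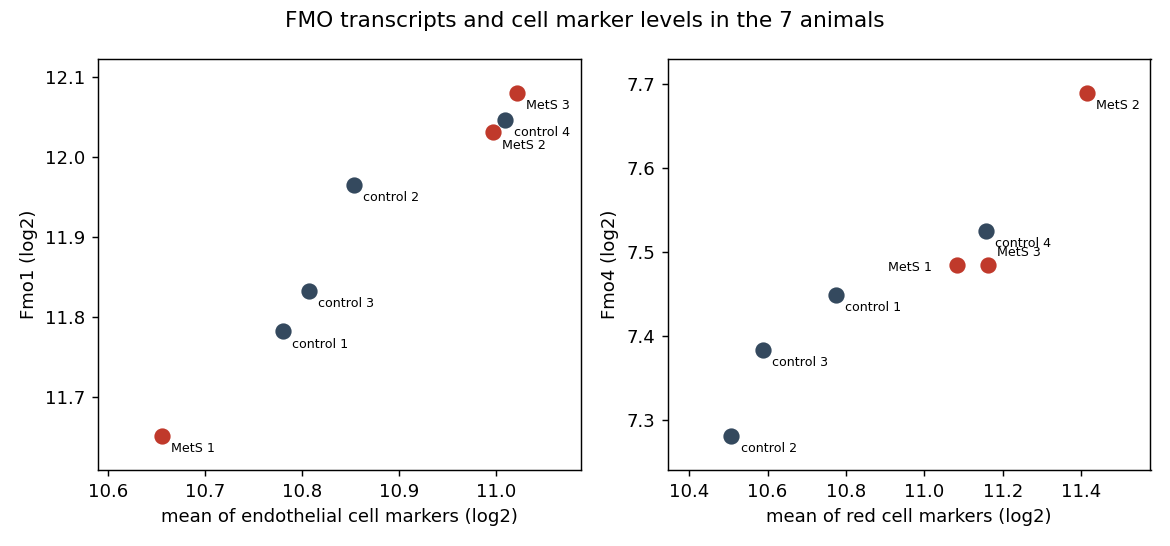
Fmo1 against the mean of 9 endothelial markers (left) and Fmo4 against the mean of 5 red cell markers (right), all in log2 units, 1 point an animal, with controls in dark blue and MetS in red. On the left the animals have the same order on both axes and the groups mix; on the right controls 1 to 3 lie lowest on both.

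Fmo2 and Fmo5 followed no marker list after adjustment. The closest for Fmo2 were alveolar type 2 cell markers (r = 0.842, exact permutation p = 0.0270, adjusted p = 0.170; rho = 0.714, p = 0.0881, adjusted p = 0.431), with r = 0.473 without the 2 animals farthest from the median. That list lay between 12.20 and 12.24 in MetS and between 12.14 and 12.23 in controls. In it 7 of 9 genes were higher by sign, with a median difference of 0.04, against 62.0% and 0.04 over all named genes. Sftpd, a surfactant protein, was 12.18 ± 0.06 (SD, n = 3) in MetS and 11.95 ± 0.16 (SD, n = 4) in controls (limma, unadjusted p = 0.0491, adjusted p = 0.363). It was the 1 gene of the 9 at an unadjusted p under 0.05, against 3.82% of all probes on the higher side, and Napsa differed by -0.17. Club cell markers, including Scgb1a1, the main secretory protein of the small airways, lay between 11.17 and 11.30 in MetS and between 10.94 and 11.45 in controls (r with Fmo2 = 0.386, exact permutation p = 0.377, adjusted p = 0.889; rho = -0.179, p = 0.713, adjusted p = 0.8999), and r was -0.678 without the 2 farthest animals. Red cell markers were higher in MetS for 5 of 5 genes by sign, against 62.0% of all named genes. At an unadjusted p under 0.05 in limma 3 passed, against 3.82% of all probes on the higher side and 13.7% in either direction. None passed over all probes. The groups did not overlap for 1 of the 5, against 4.88% of all probes with MetS higher. The median difference of the red cell markers was 0.50, or 0.11 with the SD in the model. The r of their mean with Fmo2 was 0.14 (exact permutation p = 0.770, rho = 0.357, p = 0.444). Among the members themselves r lay between -0.30 and 0.26 over 6 pairs, with unadjusted exact permutation p from 0.530 to 0.973. Without the 2 animals farthest from the median of the first gene of a pair, r ran from 0.097 (Fmo2 and Fmo5) to 0.73 (Fmo4 and Fmo5). With 7 animals, relations between members can be neither shown nor set aside.

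The labelled tissue was borne out by its markers, with Sftpc at 13.89 and Scgb1a1 at 13.73 in MetS and at 13.89 and 13.76 in controls. Of 8 hepatocyte markers, Alb (5.78 in MetS and 6.06 in controls), Ttr, Fgb and Cps1 lay below the 25th percentile of probe means. Serpina1 (9.20 and 9.33), Apoc3 (7.79 and 7.65), Apoa1 (6.87 and 6.90) and Ahsg (6.71 and 6.85) lay above it in both groups. Ranges of list means in MetS and in controls were 8.46 to 8.77 and 8.36 to 8.60 for ciliated cells, 9.40 to 9.46 and 9.34 to 9.47 for fibroblasts and pericytes, 8.95 to 9.47 and 9.13 to 9.30 for alveolar macrophages, 6.82 to 6.84 and 6.84 to 7.07 for hepatocytes, and 7.05 to 7.23 and 7.12 to 7.25 for fat cells. Of 9 fibroblast and pericyte genes Tcf21 was higher by 0.27 and Inmt, an amine methyltransferase, lower by 0.28 at an unadjusted p under 0.05. Neither passed over all probes (limma, adjusted p = 0.324 and 0.362). At the unadjusted threshold 13.7% of all probes passed in either direction and 3.82% on the higher side.

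Genes whose pattern over the 7 animals was most like each member were named from 12007 genes above the 25th percentile of probe means, as a description. For Fmo1 they were Cd247 (r = 0.981), Dlc1 (r = 0.979) and St8sia4 (r = 0.976). For Fmo2 they were Krt76 (r = 0.967), Nptx1 (r = 0.960) and Adgrb2 (r = 0.944), which differed between groups by 0.20, 0.13 and 0.05. Their Spearman's rho with Fmo2 was 0.667, 0.964 and 0.883, and control 4 was lowest for each of them, as it was for Fmo2. Fmo4 was most like Pelo (r = 0.995), Smco4 (r = 0.993) and Camkk1 (r = 0.983). Fmo5 was most like Pdlim3, a muscle LIM protein (r = 0.975), the muscle glycogen synthase gene Gys1 (r = 0.970) and Ppp2r1b (r = 0.970). Few genes followed Fmo2 closely, 12 with r above 0.9, against 198 for Fmo4, 35 for Fmo1 and 20 for Fmo5.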

How the data were processed

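The deposited table holds log2 values, 1 column per array. The submitters' processing notes name R 2.11.0, RMA and limma, with no role or order (genome build: not given in the sources used here). Per the labels' protocols, Trizol RNA with an integrity number of at least 6 was labelled from 50 ng. Gene names came from the annotation of the array: 15209 of 28826 probes had 1 symbol, 306 several and 13311 none, and 15178 of the first were matched to a RefSeq gene (GRCr8, names and gene order only). The brightest probe stood for a gene.

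Arrays of 1 animal were averaged, and limma 3.58.1 (lmFit, eBayes) in R 4.3.3 tested MetS minus control over all probes, with Benjamini-Hochberg adjustment and a threshold of 0.05. The fit was also run on simulated data in which the noise of each probe was independent. That run held no array-wide spread such as these animals show, so it does not test the fit under it. The limma p-values set the group difference against the spread between animals within a group, which eBayes moderated with that of all probes. Correlations used scipy 1.17.1 in Python 3.11.15, and were adjusted over the 44 pairs of a member and a marker list, or over the 10 pairs among members and with the array SD; the marker relations and promoter motifs were chosen after values were seen.

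Named were the 4 members, measured FMO relatives, 3 measured genes on each side of a member, 3 most alike genes, and from each list up to 3 genes with an unadjusted p under 0.05 or else the 1 with the smallest p. Slc52a2, Maob, Nr3c1, Ephx1, Csad and single cell type markers were added after their values were seen. The members and lists were chosen with earlier results of these data known. The labels do not say at which step technical replicates were split. Alternatives were other arrays of an animal, normalizations, filters, moderation, weights, a replicate block, the array SD and leaving out animals.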

Additional observations from a re-analysis of the deposited data

Results flagged for a closer look

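Among the 4 controls the Fmo2 value of control 4, 11.64, lay far below the others, which stood between 12.16 and 12.27. The gap took up 0.834 of the range of the group, just above the 95% critical value of Dixon's test. The remaining 3 members and Fmo9 were not singled out by this test, whose chance rate is about 1 group in 20. Without control 4 the Fmo2 difference was 0.35 (limma, adjusted p = 0.158), with an unadjusted p of 0.0221.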

How the results depend on the processing

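Over 19 alternatives Fmo2 stayed higher in MetS, with an adjusted p from 0.158 to 0.999, and an unadjusted p under 0.05 in 17, the exceptions being without MetS animal 1 (0.0519) or 3 (0.0910). The Fmo4 difference stayed above 0 (0.03 to 0.18). The sign of Fmo1 turned with the technical replicate arrays (-0.0054) and within the leave-one-out range of -0.066 to 0.15, and that of Fmo5 within -0.15 to 0.079. Fmo9 turned with the SD covariate (0.21), another quantile normalization (0.059) and without controls 2 and 3 (0.078). No probe passed the adjusted threshold in any setting but one: with the replicate number as a block 2017 did (replicate block; Fmo2 0.35, adjusted p = 0.166, and Fmo5 0.056, its sign turned), and of the members none did. That block gives control 4 a term of its own, and same-numbered animals did not deviate together in every pair (r = 0.27, -0.12 and 0.34), nor did every animal correlate best with its own number. Probes at an unadjusted p under 0.05, 3959 as reported, were 6747 with the replicate block, 1023 with the SD covariate, 1510 without controls 2 and 3, 2181 above the 25th percentile, 2096 with 1 symbol, and 2168 to 6180 when an animal was left out. The relation of Fmo1 to endothelial markers had r from 0.954 to 0.998 over 19 alternatives added after seeing the data, and that to fat cell markers turned without Fabp4 (0.233). Each member had 1 probe, so a mean over probes was not run. Fewer than 6 animals remained without controls 2 and 3, and no correlation with a marker list was computed there. Signal against background was not analysed here, and the small number of animals limits each value.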
